A study of Mus musculus with 53 samples.

Results

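This account covers 10 genes that describe the state of Schwann cells, out of 49568 genes listed for sciatic nerve (SCN) of mice. 3 of them encode factors of the myelinating cell (Egr2, Sox10 and Pou3f1), and 7 are genes linked to nerve injury and the repair Schwann cell (Jun, Sox2, Ngfr, Gdnf, Shh, Gap43 and Btc). They were chosen by name and not by a cut on their measured values, though earlier results of these data were known. Each was listed once in every sample. RNA was sequenced from 53 nerves in 8 groups of male C57BL/6J mice. The control groups stayed on standard diet (SD) without streptozotocin and were taken at 16 weeks of age (n = 5) or at 24 weeks (n = 8). HFD mice, a prediabetes model, ate a high-fat diet from 5 weeks of age and were taken at 16 weeks (n = 7) or 24 weeks (n = 7). HFD-STZ mice, a type 2 diabetes model, ate the same diet and also received streptozotocin, a toxin of insulin-producing cells, at 12 weeks in a dose of 75 and then 50 mg per kg, and were taken at 16 weeks (n = 5) or 24 weeks (n = 8). Dietary reversal (DR) returned mice of both models to SD at 16 weeks for 8 weeks, giving HFD-DR (n = 7) and HFD-STZ-DR (n = 6) at 24 weeks. The labels give no transgene or deletion for any group. The nerves were measured whole, so fat, vessels, fibroblasts and immune cells of the nerve add their RNA to that of the Schwann cells, while the cell bodies of the neurons lie outside it.

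Sox10 maintains Schwann cell identity and, when myelination begins, acts with Pou3f1 (Oct6) to switch on Egr2 (Krox20), which in turn drives the genes of myelin. After an injury the same cells lose this programme: Jun (c-Jun) rises and directs the change into a repair cell, Egr2 and Jun oppose each other, and the repair cell makes trophic signals such as Gdnf and Shh. Sox2 and the low-affinity neurotrophin receptor Ngfr (p75NTR) mark immature and repair cells, Gap43 is a growth protein of both axons and non-myelinating Schwann cells, and Btc (betacellulin) is a ligand of the EGF receptor family.

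The 2 genes with the smallest p-values over all 8 groups were Jun and Egr2, so the stretch of DNA before their starts is shown, from RefSeq with build GRCm38.p6. RefSeq promoter entries matched 6 of the 10 genes (Egr2, Jun, Sox2, Ngfr, Gdnf and Btc). The Jun window is the 250 bases before the start of its single-exon gene, chr4:95052223-95052472 on the minus strand. The Egr2 window is chr10:67537619-67537868 on the plus strand, 1 of 5 RefSeq entries of this gene, which lies just before the first exon of the shorter transcripts and overlaps no annotated exon. Each is written 5′ to 3′, with capitals marking a cAMP-response-like element (searched as TGACNTCA) in Jun and a CArG box, the site type of serum response factor, in Egr2:
Jun: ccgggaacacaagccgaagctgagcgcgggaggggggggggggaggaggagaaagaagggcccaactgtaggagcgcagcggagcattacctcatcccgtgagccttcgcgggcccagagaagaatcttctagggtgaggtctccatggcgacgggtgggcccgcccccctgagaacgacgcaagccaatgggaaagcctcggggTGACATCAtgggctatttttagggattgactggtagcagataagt
Egr2: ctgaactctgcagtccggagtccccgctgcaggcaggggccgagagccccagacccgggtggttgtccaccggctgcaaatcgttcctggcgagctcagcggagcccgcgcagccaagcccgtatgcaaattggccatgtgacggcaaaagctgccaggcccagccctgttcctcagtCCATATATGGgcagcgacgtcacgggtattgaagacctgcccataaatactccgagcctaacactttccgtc
The element of Jun, TGACATCA, begins 45 bases before the start, and such an element stands in 7.49% of 32851 promoter windows of this length, searched on both strands. The CArG box of Egr2, CCATATATGG, begins 72 bases before the start, and 1.47% of the windows hold one. The window of another Egr2 entry, chr10:67535249-67535498, holds none. The AP-1 element was searched as TGANTCA only. That exact form was in none of the 11 windows that RefSeq lists for these 6 genes and in 6.75% of all windows.

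Jun sits on chromosome 4 (95049034 to 95052222), Egr2 on chromosome 10 (67535475 to 67542188), Sox10 on chromosome 15 (79154908 to 79165240) and Pou3f1 on chromosome 4 (124656807 to 124660655) of GRCm38. Values were used as deposited, in log2 units that the authors normalized between samples but not for gene length. After subtracting the log2 of each gene's exon length in kb, the mean level per kb over the 53 nerves was highest for Sox10 at 13.28, then Egr2 at 12.30, Jun at 10.33 and Pou3f1 at 9.83. Sox2 followed at 8.00, Ngfr at 7.46 and Gap43 at 7.43, and the secreted ligands were lowest, with Shh at 5.88, Btc at 4.59 and Gdnf at 2.37. The myelinating factors and Jun were thus the abundant transcripts of the set, and Gdnf the least abundant. The 7 Schwann cell markers set beside them (among them S100b, Cdh19, Erbb3, Gfra3 and Foxd3) were well above 0 in every nerve, with a mean log2 value of 13.46 to 14.24 per sample.

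1 library stood apart. Replicate 7 of HFD-STZ at 24 weeks held transcripts of neuronal cell bodies: peripherin (Prph) was at a log2 value of 14.55 there and at most 9.37 in the other 52 nerves, and the transcription factor Isl1 was at 11.31 there and at most 6.11 elsewhere. The neurofilament gene Nefl was listed at 57.0 in it, a value outside any plausible log2 range, and 23 of the 25 genes with a value above 22 had it in this library. It also had the highest Gap43 (11.92, at most 8.76 elsewhere), the highest Ngfr (11.28, at most 9.86 elsewhere) and the highest Sox2 (9.63, at most 9.58 elsewhere). Many of the results that include it are followed by their values without it. The count of related pairs among the 10 genes, and the nearest genes of most of them, are given for all nerves only. Replicates of 1 group are separate samples by their labels, the log2 values carry no read counts, and the precision therefore rests on the spread between nerves.

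Differences were tested with limma on the samples of both groups, with p-values adjusted over all genes tested by the Benjamini-Hochberg method and a threshold of 0.05, and each difference of a named gene was also given a 2-sided exact permutation test. Over all 8 groups at once, Jun was the 1 gene of the 10 that changed. Its group means spanned 0.52 on the log2 scale, with an adjusted p of 0.00138 (limma F test), where 1.97% of all 18073 genes were called. Egr2 spanned 0.69 with an adjusted p of 0.165. Both were under an unadjusted p of 0.05, as were 14.6% of all genes. The others spanned 0.23 for Sox10 and for Sox2, 0.31 for Pou3f1, 0.45 for Ngfr, 0.46 for Gdnf, 0.58 for Gap43, 0.83 for Shh and 0.98 for Btc, with adjusted p from 0.385 (Shh) to 0.932 (Sox2). Without the library with neuronal transcripts the span was 0.26 for Gap43, 0.20 for Ngfr and 1.20 for Btc, and Btc was then under an unadjusted p of 0.05 too, with a limma adjusted p of 0.137, where 16.7% of all genes were under 0.05 and 3.13% were called. Jun had a limma adjusted p of 0.00129 in that fit.

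Egr2, the driver of myelin genes, had lower means in the HFD nerves at both ages, without passing the adjusted threshold in any comparison. At 16 weeks the 5 SD nerves read 14.15, 14.30, 14.43, 14.58 and 14.73, and the 5 HFD-STZ nerves 14.02, 14.05, 14.07, 14.07 and 14.26. The 7 HFD nerves ran from 13.64 through a median of 13.84 to 14.55. All of the SD nerves lay in the upper part of the range, and 5 of the 7 HFD nerves were below each of them, yet the groups overlapped. SD nerves averaged 14.44 ± 0.22 (SD, n = 5), against 13.96 ± 0.34 (SD, n = 7) for HFD. The difference of HFD from SD was −0.48 (SE 0.16, 95% interval −0.82 to −0.14, 0.717 of the SD level), with a limma adjusted p of 0.466 and an exact permutation p of 0.0278. HFD-STZ differed from SD by −0.34 (SE 0.10, 95% interval −0.57 to −0.11), with a limma adjusted p of 0.545 and an exact permutation p of 0.0159.

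At 24 weeks Egr2 ran from 13.57 through a median of 14.18 to 14.46 in SD, and from 13.39 through 13.82 to 14.19 in HFD. HFD-STZ ran from 13.72 through 13.91 to 14.34, HFD-DR from 13.66 through 14.02 to 14.50 and HFD-STZ-DR from 13.81 through 14.29 to 14.50. HFD nerves sat lowest and the dietary reversal groups overlapped SD throughout. HFD was 0.37 below SD (log2 difference −0.37, SE 0.14), with a limma adjusted p of 0.462 and an exact permutation p of 0.0382. HFD-DR was above HFD by 0.37 (SE 0.15), with a limma adjusted p of 0.704 and an exact permutation p of 0.0484. HFD-DR and SD nerves had the same mean to 2 decimals, 14.12, and the 95% interval of their difference ran from −0.32 to 0.32. In the order of the 8 group means, from SD at 16 weeks (14.44) down to HFD at 24 weeks (13.75), only 2 of the 7 steps were wider than the smaller SD of the neighbours: that from SD at 16 weeks to HFD-STZ-DR (14.19), and that from HFD-STZ at 16 weeks (14.10) to HFD-STZ at 24 weeks (13.99).

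Markers of fat moved in the opposite direction to Egr2, and over deviations from the group means r was −0.55. This was not particular to fat. The r of Egr2 was −0.61 with macrophage, −0.49 with endothelial, −0.37 with fibroblast and −0.34 with perineurial markers, each with an adjusted permutation p under 0.05. The mean of 6 adipocyte genes (Adipoq, Plin1, Plin4, Cidec, Fabp4 and Lep), none of them at 0 in any nerve, was between 8.12 and 11.8 in SD and between 11.6 and 14.1 in HFD at 16 weeks. All 6 were higher in HFD at an unadjusted p under 0.05, and the score differed by 2.70 (exact permutation p = 0.00253). With this score as a covariate the Egr2 difference at 16 weeks was −0.01 (limma adjusted p = 0.984). The score ranges of SD and HFD barely overlapped there, so diet and fat content cannot be told apart in that fit. The difference of HFD from SD at 24 weeks was −0.15 with the score as covariate and that of HFD-DR from HFD was 0.04. With the Schwann cell marker score as a covariate these 3 differences were −0.29, −0.35 and 0.27. In whole nerve, fewer cells of a type and less RNA per cell cannot be told apart.

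**Figure D1:**
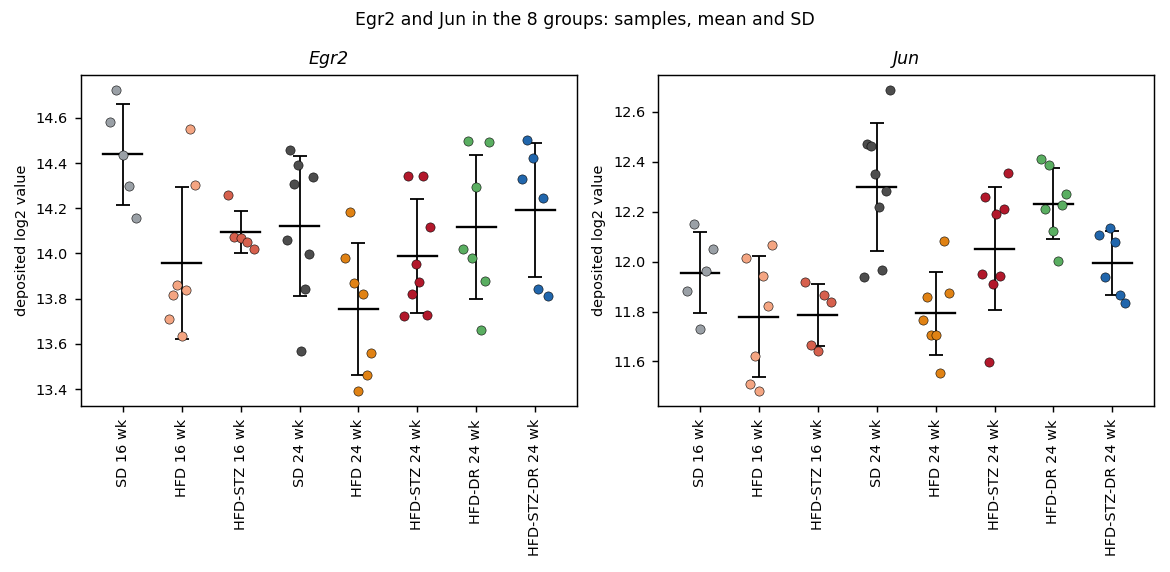
Deposited log2 values of Egr2 (left) and Jun (right) in each of the 53 nerves, by group, with the mean as a horizontal line and the SD as bars. Jun was highest in SD at 24 weeks (mean 12.30) and HFD-DR (12.23) and lowest in the 16-week HFD groups and HFD at 24 weeks (11.78 to 11.79), and Egr2 was highest in SD at 16 weeks (14.44) and lowest in HFD at 24 weeks (13.75).

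Jun, the transcription factor that directs the repair state, had no higher mean in a disease model than in SD of the same age. At 24 weeks its mean was lowest in HFD and close to that of SD in HFD-DR. At 24 weeks the SD nerves ran from 11.94 through a median of 12.32 to 12.69, and the HFD nerves from 11.55 through 11.77 to 12.08. Of the 7 HFD nerves, 6 were below all 8 SD nerves. HFD-DR nerves ran from 12.00 through 12.23 to 12.41, and 6 of the 7 were above all HFD nerves. HFD-STZ nerves ran from 11.60 through 12.07 to 12.35 and HFD-STZ-DR nerves from 11.84 through 12.01 to 12.13, each overlapping all the other groups. At 16 weeks the SD nerves read 11.73, 11.88, 11.96, 12.05 and 12.15, the HFD-STZ nerves read 11.64, 11.67, 11.84, 11.87 and 11.92, and the HFD nerves ran from 11.48 through 11.82 to 12.07.

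The 24-week mean of Jun for SD was 12.30 ± 0.26 (SD, n = 8), for HFD 11.79 ± 0.17 (SD, n = 7) and for HFD-DR 12.23 ± 0.14 (SD, n = 7). HFD differed from SD by −0.51 (SE 0.11, 95% interval −0.73 to −0.28), or 0.704 of the SD level, with a limma adjusted p of 0.0791 and an exact permutation p of 0.00155. This is short of the threshold in the fit of those 2 groups. It passed in the fit that takes the spread from all 8 groups (limma adjusted p = 0.00858), in that fit with a term for runs of consecutive library numbers (0.00401) and with the Schwann cell marker score as a covariate (0.0454). HFD-DR differed from HFD by 0.44 (SE 0.08, 95% interval 0.26 to 0.62), or 1.36-fold, with a limma adjusted p of 0.102 and an exact permutation p of 0.00117. It passed in the fit of all groups with the library-number runs (0.0233) and not in the other fits of this comparison, where the adjusted p reached 0.229. Both differences use the same HFD nerves, so they are not independent.

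HFD-DR and SD differed in Jun by −0.07, with a 95% interval from −0.29 to 0.16. Nerves of HFD-STZ-DR mice lay below SD by 0.30 (log2 difference −0.30, SE 0.11, limma adjusted p = 0.42, exact permutation p = 0.0226). They lay below HFD-DR by 0.24 (log2 difference −0.24, SE 0.08, limma adjusted p = 0.999, exact permutation p = 0.0128). HFD-STZ was 0.26 above HFD at 24 weeks (SE 0.11, limma adjusted p = 0.785, exact permutation p = 0.0387), and 0.24 above it without the library with neuronal transcripts (exact permutation p = 0.0688). Without that library HFD-STZ differed from SD at 24 weeks by −0.27 (SE 0.12, limma adjusted p = 0.695, exact permutation p = 0.0636). DR moved Jun by 0.44 in the HFD model and by −0.06 in the HFD-STZ model, and the difference between these effects was −0.50 (SE 0.14, 95% interval −0.78 to −0.22), or −0.48 without that library. Its unadjusted limma p (interaction fitted across all genes) came to 0.00114, but with no gene of 18172 past the adjusted threshold and 1.71% under an unadjusted p of 0.05, Jun among them, its adjusted p was 1.0.

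With age, Jun was 0.34 higher in SD nerves at 24 than at 16 weeks (SE 0.12, limma adjusted p = 0.437, exact permutation p = 0.0233). It was 0.26 higher in HFD-STZ nerves (SE 0.11, limma adjusted p = 0.372, exact permutation p = 0.0544), or 0.24 without the library with neuronal transcripts, and 0.01 higher in HFD nerves, with a 95% interval from −0.21 to 0.23. In the order of the 8 means, the steps from HFD-DR (12.23) to HFD-STZ at 24 weeks (12.05) and from SD at 16 weeks (11.96) to HFD at 24 weeks (11.79) exceeded the smaller SD of the neighbours, and the other 5 did not.

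Immediate early genes, which cells switch on within minutes of handling or stimulation, were set beside Jun, itself one but not among the 12 averaged. Their mean over 12 genes, none at 0 in any nerve, at 24 weeks was for SD 10.59 ± 0.44 (SD, n = 8), for HFD 10.43 ± 0.36 (SD, n = 7) and for HFD-DR 10.53 ± 0.32 (SD, n = 7), with ranges that overlapped. In HFD against SD, 1 of the 12 was lower at an unadjusted p under 0.05 (Cyr61, log2 difference −0.43, limma adjusted p = 0.513). In HFD-DR against HFD, 1 of the 12 was higher (Cyr61, log2 difference 0.40, limma adjusted p = 0.501). At 16 weeks 4 of the 12 were higher and 1 lower in HFD than in SD at that level, beside 8.56% of all genes. With the mean of the immediate early genes as a covariate the Jun differences were −0.46 (limma adjusted p = 0.0984) and 0.42 (0.0519). With the adipocyte score as covariate they were −0.52 and 0.49, beside −0.51 and 0.44 without a covariate.

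**Figure D2:**
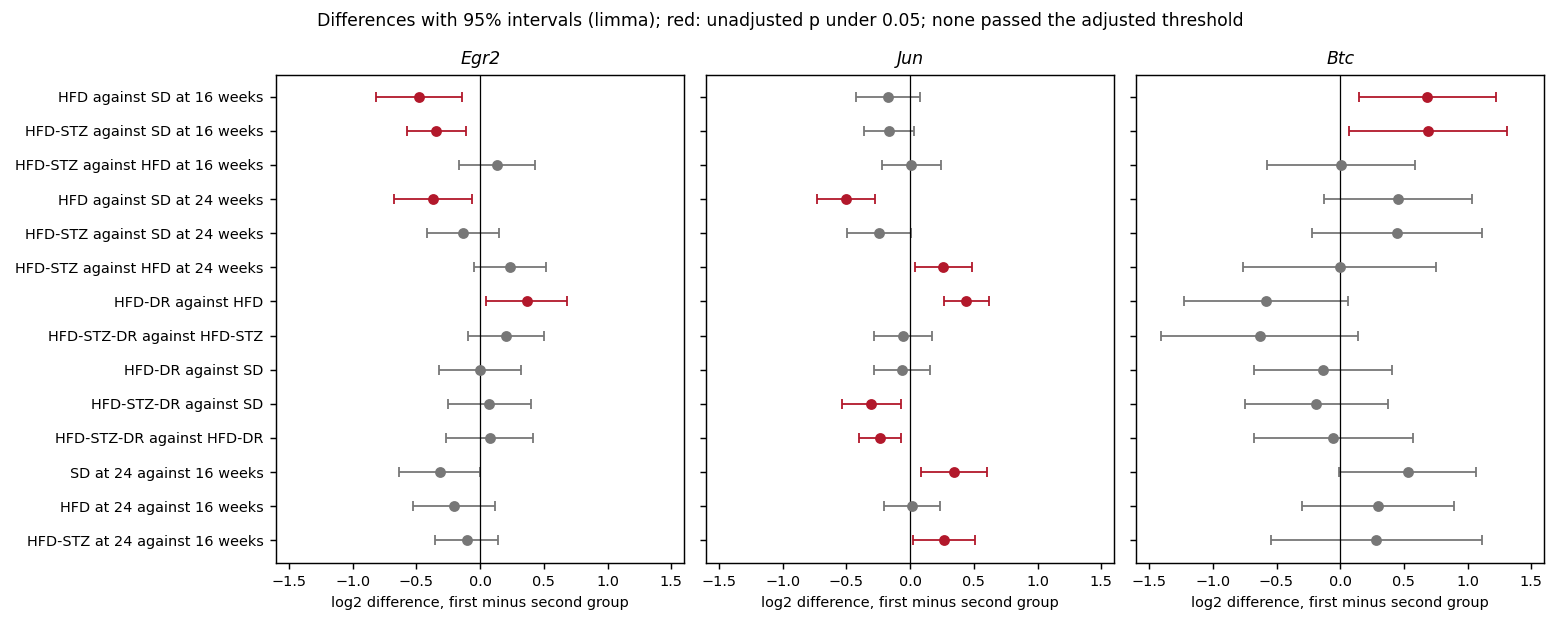
Log2 difference of Egr2, Jun and Btc in each of the 14 comparisons (first minus second group), with 95% intervals from limma. Red points have an unadjusted p under 0.05, which holds in 4 comparisons for Egr2, 7 for Jun and 2 for Btc, and no point passed the adjusted threshold.

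Sox10 and Pou3f1, the other myelinating factors, passed the threshold in no comparison. Sox10 had group means between 14.81 ± 0.36 (SD, n = 8, SD at 24 weeks) and 15.04 ± 0.17 (SD, n = 7, HFD at 16 weeks). Its differences over the 14 comparisons lay between −0.18 and 0.06, and the 95% intervals reached from −0.54 to 0.36 at the widest. Pou3f1 had means between 11.60 ± 0.29 (SD, n = 7, HFD at 24 weeks) and 11.91 ± 0.40 (SD, n = 5, SD at 16 weeks), and its differences lay between −0.28 and 0.29. No step in the order of the group means of either gene exceeded the smaller SD of the neighbours.

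Among the markers of immature and repair cells, Sox2 passed the threshold in no comparison, with means from 8.89 ± 0.39 (SD, n = 7, HFD at 24 weeks) to 9.12 ± 0.22 (SD, n = 5, SD at 16 weeks) and differences between −0.22 and 0.20. Ngfr had means from 9.07 ± 0.22 (SD, n = 7, HFD at 16 weeks) to 9.53 ± 0.72 (SD, n = 8, HFD-STZ at 24 weeks). Without replicate 7 the HFD-STZ mean of Ngfr was 9.28 ± 0.16 (SD, n = 7). Gap43 had its highest mean, 8.45 ± 1.43 (SD, n = 8), in the same group, and without that library it was 7.96 ± 0.30 (SD, n = 7), within the 7.87 to 8.14 of the other groups. Its difference of HFD-STZ from HFD at 24 weeks was 0.58 with the library and 0.08 (SE 0.18) without it. The difference of HFD-STZ from SD at 24 weeks was 0.52 with it and 0.03 (SE 0.15) without it. The higher means of both genes in that group thus rested on the 1 library with neuronal transcripts.

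Of the secreted ligands, Gdnf, a survival factor for motor and sensory neurons, was low, with values from 2.90 to 5.72 and group means from 3.96 ± 0.61 (SD, n = 5, SD at 16 weeks) to 4.42 ± 0.50 (SD, n = 6, HFD-STZ-DR). The 95% intervals of its differences reached a median of 0.63 to either side, so smaller differences could not be told from 0. Shh, the hedgehog ligand that injured nerve switches on, had its lowest mean in SD at 16 weeks (6.92 ± 0.62, SD, n = 5) and its highest in HFD-STZ-DR (7.75 ± 0.49, SD, n = 6). HFD-STZ nerves read 6.89, 7.34, 7.37, 7.49 and 7.56 at 16 weeks and ran from 7.33 through 7.65 to 8.23 at 24 weeks. The 24-week nerves were higher by 0.36 (SE 0.16), with a limma adjusted p of 0.392 and an exact permutation p of 0.0443. Of the 8 later nerves, 5 were above all those at 16 weeks, and without the library with neuronal transcripts the difference was 0.41.

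Btc had higher means in both high-fat groups at 16 weeks. SD nerves read 5.47, 6.18, 6.21, 6.46 and 6.51, HFD-STZ nerves read 6.20, 6.27, 7.21, 7.29 and 7.30, and HFD nerves ran from 6.42 through 6.70 to 7.55. HFD exceeded SD by 0.68 (SE 0.25), with a limma adjusted p of 0.531 and an exact permutation p of 0.0189. HFD-STZ exceeded SD by 0.69 (SE 0.28), with a limma adjusted p of 0.586 and an exact permutation p of 0.0873. At 24 weeks Btc averaged 7.14 in both HFD and HFD-STZ and 6.56 and 6.51 in HFD-DR and HFD-STZ-DR. The differences on DR, −0.58 and −0.63, had 95% intervals that reached above 0 (0.06 and 0.14) with all nerves. Without the library with neuronal transcripts the HFD-STZ mean was 7.37. The difference of HFD-STZ-DR from it was then −0.86, with a 95% interval from −1.47 to −0.25 that did not reach 0 (SE 0.29, limma adjusted p = 0.303, exact permutation p = 0.0233). HFD-STZ then exceeded SD at 24 weeks by 0.67 (SE 0.25, limma adjusted p = 0.593, exact permutation p = 0.0309). The adipocyte score moved with it: with that score as covariate the HFD difference at 16 weeks was −0.11 instead of 0.68, and the HFD-STZ difference was 0.36 instead of 0.69. Because the score ranges of SD and HFD barely overlapped at 16 weeks, the −0.11 cannot separate diet from fat content.

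**Figure D3:**
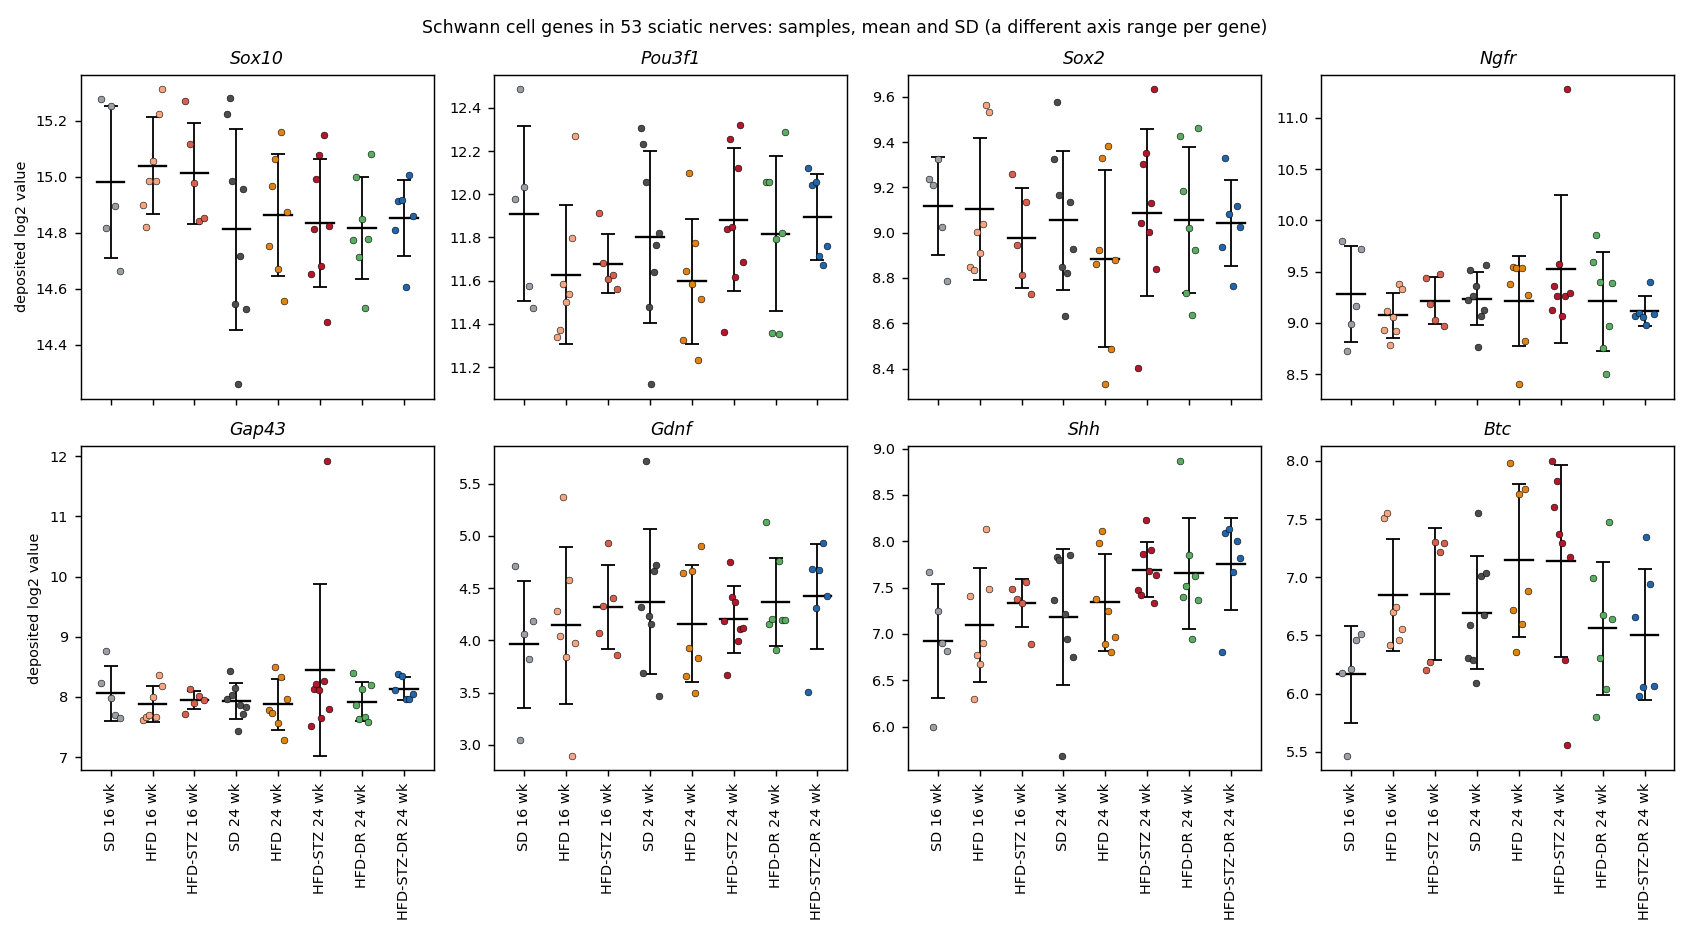
Deposited log2 values of the other 8 genes in each of the 53 nerves, by group, with the mean as a horizontal line and the SD as bars. Each panel has its own axis range, the groups overlap in every panel, and the single high point of Ngfr (11.28) and Gap43 (11.92) is the HFD-STZ library with neuronal transcripts.

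Counted over the 14 pairwise comparisons, none of the 10 genes passed the adjusted threshold in any of them. This stood against a background in which few genes of any kind did. In HFD against SD at 16 weeks 0.00557% of the genes tested were called, and 2 of the 10 (Egr2 and Btc) were under an unadjusted p of 0.05, beside 8.56% of all genes. In HFD-STZ against SD at 16 weeks 0% were called, and the same 2 genes were under 0.05, beside 8.41%. In HFD-STZ against HFD at 16 weeks 0% were called and none of the 10 was under 0.05, beside 4.88%. In HFD against SD at 24 weeks 0.121% were called, and Jun and Egr2 were under 0.05, beside 9.06%. In HFD-STZ against SD at 24 weeks 0.0336% were called and none of the 10 was under 0.05, beside 5.99%. Without the library with neuronal transcripts Btc and Jun were under 0.05 there, beside 7.11%, with 0.056% called. Jun alone was under 0.05 in HFD-STZ against HFD at 24 weeks, beside 5.6% of all genes with 0% called.

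On dietary reversal, HFD-DR against HFD called 0.0108% of all genes, and Jun and Egr2 were under an unadjusted p of 0.05, beside 6.72%. HFD-STZ-DR against HFD-STZ called 0.0839%, with none of the 10 under 0.05, beside 6.48%. Without the library with neuronal transcripts Btc was under 0.05 there, beside 8.27%, with 0.654% called. HFD-DR against SD called 0%, with none of the 10 under 0.05, beside 5.15%. In HFD-STZ-DR against SD and against HFD-DR 0% were called and Jun was the 1 gene under 0.05, beside 9.16% and 3.58% of all genes. With age, 0% were called in SD, where Jun was under 0.05 beside 10.5%. In HFD 0.0653% were called and none of the 10 was under 0.05, beside 5.89%. In HFD-STZ 0% were called, with Jun and Shh under 0.05, beside 12.5%, and without that library Shh alone, beside 15.4%. The change of the HFD effect between 16 and 24 weeks and that of the HFD-STZ effect called 0% of all genes each, and none of the 10 was under 0.05, beside 1.67% and 4.68%. Read against these shares, only Jun, by the test over all 8 groups, stood past a threshold.

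The signs of the differences were counted for the 2 sets of genes. In HFD against SD at 24 weeks 2 of the 3 myelinating factors and 5 of the 7 repair genes were lower, with a median over the 10 of −0.11, beside a median of 0.01 over all genes tested. In HFD-DR against HFD 2 of the 3 and 5 of the 7 were higher, with a median of 0.19 over the 10. HFD-STZ against HFD at 24 weeks had 8 of the 10 higher, with a median of 0.25. Without the library with neuronal transcripts all 10 were higher there, with a median of 0.17. In HFD-STZ against SD at 24 weeks 5 of the 7 repair genes were higher, with a median of 0.29 over the 7, and without the library with neuronal transcripts 4 of the 7 were, with a median of 0.03. In HFD-STZ-DR against HFD-STZ all 3 myelinating factors were higher and 5 of the 7 repair genes lower, but without that library 2 of the 3 and 4 of the 7 were higher. With age, none of the 3 myelinating factors and 4 of the 7 repair genes were higher in SD, with medians of −0.17 and 0.26. In HFD none of the 3 and 5 of the 7 were higher, with medians of −0.18 and 0.02. In HFD-STZ 1 of the 3 and 6 of the 7 were higher, with medians of −0.11 and 0.28, or −0.07 and 0.06 without that library. These counts carry no test.

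The genes that work beside them were taken from lists. Of 15 co-regulators of myelination, Nab2, a co-repressor that binds Egr2, changed over the 8 groups (span 0.37, limma adjusted p = 0.0177). At 16 weeks Nab2 averaged 10.63 ± 0.13 in HFD (SD, n = 7), against 10.34 ± 0.12 for SD (SD, n = 5), a difference of 0.30 (SE 0.08, limma adjusted p = 0.392, exact permutation p = 0.00379) that ran opposite to that of Egr2. Yy1, a factor that helps to switch on Egr2, was 0.24 higher in HFD than in SD at 24 weeks (SE 0.07, limma adjusted p = 0.306, exact permutation p = 0.0042). Of 12 myelin genes, 8 were under an unadjusted p of 0.05 over the 8 groups and Pmp22 was past the adjusted threshold (span 0.65, limma adjusted p = 0.0148). All 12 had lower means at 24 than at 16 weeks in SD, in HFD and in HFD-STZ, with median differences of −0.30, −0.21 and −0.24, and none was called in those comparisons. The adipocyte score moved the other way. It was 1.78 higher at 24 than at 16 weeks in SD (exact permutation p = 0.0241), 0.39 higher in HFD (exact permutation p = 0.495) and 1.53 higher in HFD-STZ (exact permutation p = 0.0552). Of the 6 adipocyte markers, 6, 0 and 5 were higher at an unadjusted p under 0.05 in these comparisons. Their part in the lower myelin genes was not tested. Mal, a proteolipid of myelin, was lower in SD at 24 weeks by 0.50 (log2 difference −0.50, SE 0.14, limma adjusted p = 0.35). The Schwann cell markers had a like difference in SD with age, −0.27 in their mean score (exact permutation p = 0.0241).

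Of 25 other genes of the repair or immature cell, 22 could be tested over the 8 groups and 5 were under an unadjusted p of 0.05 there. Of these, 1 gene, not named here, was past the adjusted threshold. In HFD against SD at 24 weeks 2 of 23 tested genes of the list were higher and 2 lower at an unadjusted p under 0.05. Bdnf, the neurotrophin, exceeded SD by 0.92 in HFD-STZ at 16 weeks (SE 0.25, limma adjusted p = 0.529, exact permutation p = 0.0159). Of 22 ligands and receptors of the pathways of Gdnf, Ngfr, Shh and Btc, 20 were tested, none was called in any comparison and 2 were under an unadjusted p of 0.05 over the 8 groups. Gfra1, the receptor that binds Gdnf, was 0.25 lower in HFD-STZ nerves at 24 than at 16 weeks (log2 difference −0.25, SE 0.07, limma adjusted p = 0.289). Ntf3, another neurotrophin, was 0.97 higher there (SE 0.29, limma adjusted p = 0.289).

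Within the groups the genes followed the scores of cell type markers. Relations were computed over deviations from the group means in all 53 nerves, for 80 pairs of a gene and a score, with permutation p-values adjusted over the 80 pairs. 47 pairs were under an adjusted p of 0.05, 13 of them positive and 34 negative. With the Schwann cell marker score, 7 of the 10 genes had a positive relation and Btc a negative one. The smallest p the permutations could give was 1e-05.

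For Sox10 the relation to the Schwann cell markers had r = 0.78 and rho = 0.80 (both permutation p = 1e-05, adjusted 4.21e-05 and 4e-05), and r was 0.74 without the 2 nerves farthest from the median score. For Sox2 r was 0.80 and rho 0.78 (both permutation p = 1e-05, adjusted 4.21e-05 and 4e-05), and r was 0.78 without those 2 nerves. So Sox2, listed as a repair marker, followed the Schwann cell markers at an r close to that of Sox10, and the difference between the 2 values was not tested. Egr2 had r = 0.67 and rho = 0.64, and Pou3f1 r = 0.68 and rho = 0.67 (all permutation p = 1e-05, adjusted up to 4.21e-05), with r of 0.60 and 0.61 without those 2 nerves. Taking out the 8 runs of library numbers as well left r at 0.79 for Sox10, 0.75 for Sox2 and 0.61 for Egr2. Within the 6 runs of 6 or more nerves, r was positive in all 6 for each of these 3 genes, from 0.40 to 0.91 for Sox10, from 0.16 to 0.89 for Sox2 and from 0.43 to 0.93 for Egr2. Erbb3, a target of Sox10, is among the 7 markers, and all values share the normalization between samples.

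Jun stood apart from that axis, with r = 0.02 to the Schwann cell markers and 0.03 to the adipocyte markers. Its only relation to a score under an adjusted p of 0.05 was with the immediate early genes, r = 0.46 (permutation p = 0.0006, adjusted 0.0015) and rho = 0.46 (permutation p = 0.00062, adjusted 0.00153). Without the 2 nerves farthest from the median score r was 0.41, and with the runs of library numbers taken out it was 0.34. Within the 6 larger runs it ranged from −0.16 to 0.90 and was positive in 5.

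Btc followed fat and vessel markers. Its relation to the adipocyte score had r = 0.76 and rho = 0.78 (both permutation p = 1e-05, adjusted 4.21e-05 and 4e-05) and r = 0.78 without the 2 farthest nerves. To the endothelial score it had r = 0.77 and rho = 0.76 (both permutation p = 1e-05, adjusted 4.21e-05 and 4e-05) and r = 0.75 without those 2. With the runs taken out the relation to the adipocyte score was 0.74, and within the 6 larger runs it ranged from 0.36 to 0.95. Gap43 had a negative relation to the fibroblast score, r = −0.69 and rho = −0.63 (both permutation p = 1e-05, adjusted 4.21e-05 and 4e-05), and r was −0.68 without the 2 farthest nerves and −0.62 without the library with neuronal transcripts. Gdnf had no relation under an adjusted p of 0.05 with any of the 8 scores. The score of 7 skeletal muscle genes, which ranged from 6.36 to 16.9 between nerves, had none with any of the 10 genes.

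**Figure D4:**
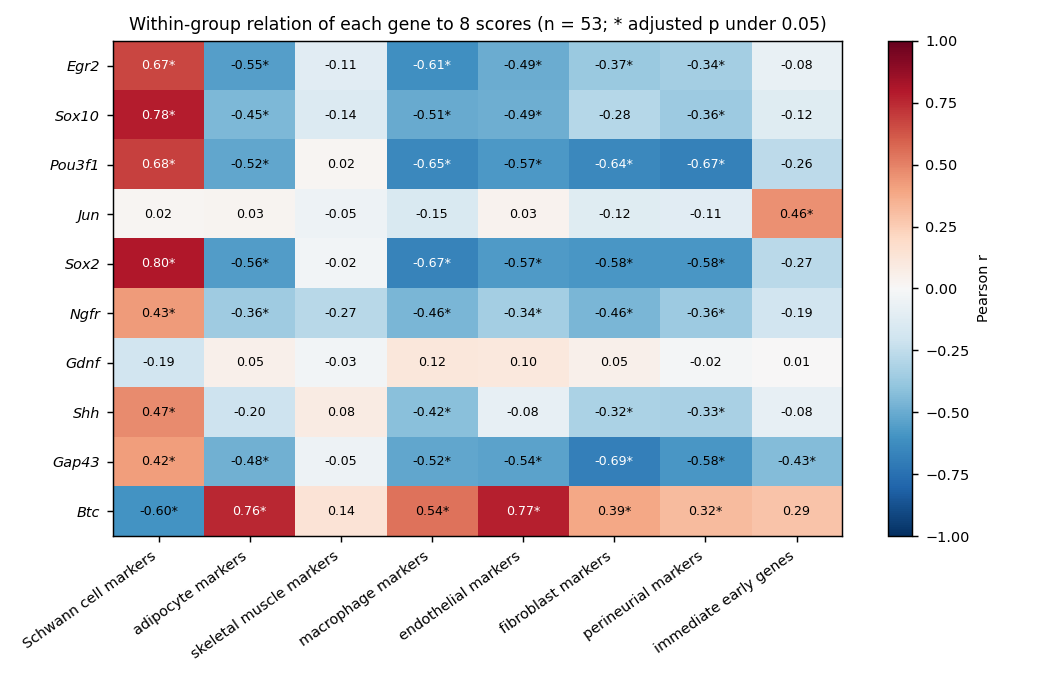
Pearson r between each of the 10 genes (rows) and 8 marker scores (columns), over deviations from the group means in 53 nerves, with a star where the permutation p adjusted over 80 pairs is under 0.05. The column of Schwann cell markers is positive for 7 of the genes, while Jun has r = 0.02 there and a star for the immediate early genes alone.

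Between the 10 genes themselves, 20 of 45 pairs were under an adjusted p of 0.05, 13 positive and 7 negative. Sox2 and Pou3f1 had r = 0.81 and rho = 0.81 (both permutation p = 1e-05, adjusted 5.62e-05 and 6.43e-05), and Sox10 and Sox2 r = 0.68 and rho = 0.72 (both permutation p = 1e-05, adjusted 5.62e-05 and 6.43e-05). No negative pair joined Jun and Egr2, and Jun was in none of the 20. The r of Jun and Egr2 was positive, at 0.30 (permutation p = 0.0312, adjusted 0.0669). Without the library with neuronal transcripts this r was 0.32 and under the threshold (permutation p = 0.0207, adjusted 0.0373). Of the 7 negative pairs, 6 had Btc in them and the seventh was Egr2 with Gdnf (r = −0.38, permutation p = 0.00537, adjusted 0.0134, rho = −0.38, permutation p = 0.00512, adjusted 0.0121). Ngfr and Gap43 had r = 0.69 in all nerves and 0.33 without the library with neuronal transcripts. Other pairs had a higher r without that library. For Sox10 with Gap43 r went from 0.06 to 0.56, for Egr2 with Gap43 from 0.17 to 0.61 and for Egr2 with Ngfr from 0.28 to 0.51.

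**Figure D5:**
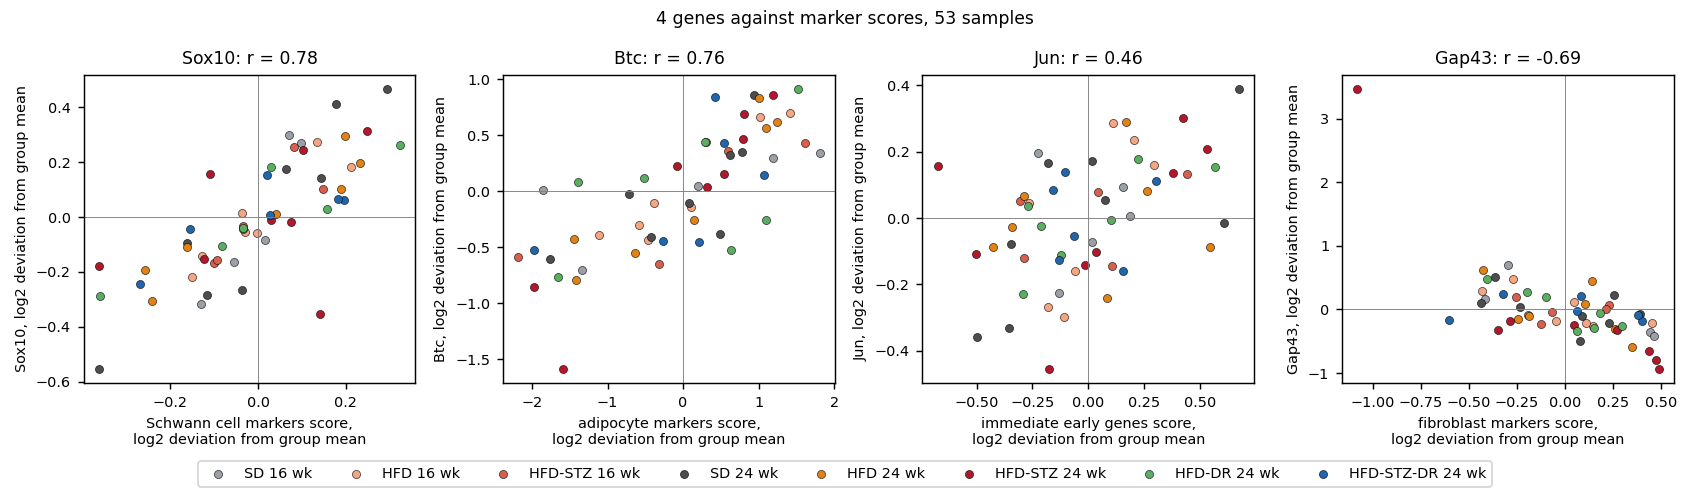
Deviations from the group mean of 4 genes (vertical axes) against deviations of a marker score (horizontal axes), both on the log2 scale, 1 point per nerve, coloured by group. The points rise together for Sox10 with Schwann cell markers (r = 0.78) and Btc with adipocyte markers (r = 0.76), more loosely for Jun with immediate early genes (r = 0.46), and the lone high point of Gap43 is the HFD-STZ library with neuronal transcripts.

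The genes whose deviations were most like those of each member, among the 18073 tested over all groups, were described by Pearson r over the 53 nerves. Among the nearest to Sox10 were Cldn19 (r = 0.90), a claudin of Schwann cells, and Zdhhc8 (0.89). For Egr2 they were Ado (0.86), Prss12 (0.85) and Dhh (0.83), the hedgehog ligand of Schwann cells. For Pou3f1 they were Cdkn1a (0.92), 2810468N07Rik (0.90) and Pdgfa (0.90), and for Sox2 they were Pcbp4 (0.89), Pcyox1l (0.89) and 2810468N07Rik (0.86). The nearest genes to Jun were less alike, Clp1 at 0.67, Cyr61 at 0.65 and Hspa14 at 0.57, as were those to Shh (Pbx2 at 0.70, Cadm4 at 0.69 and Ddx17 at 0.68) and Gdnf (Melk at 0.61, Pbk at 0.58 and Fzd10 at 0.56). For Btc they were Ppp2r5a (0.84), Lipe (0.83), the hormone-sensitive lipase of fat cells, and Dram1 (0.83). For Ngfr they were Gabbr1 (0.81), Lrrc49 (0.80) and Ankrd13d (0.80) in all nerves, but Sema4c (0.75), U2af2 (0.74) and Cant1 (0.73) without the library with neuronal transcripts. For Gap43 they were Gng3 (0.97), Fbxo2 (0.96) and Prph (0.96) in all nerves. Without that library Gng3 and Prph stayed nearest, at 0.87 and 0.86 over the other 52 nerves.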

How the data were processed

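Whole sciatic nerves were sequenced. Per the labels and the study's methods, the authors quality-filtered the reads, used HISAT2 to align them to mm10 (GRCm38) and featureCounts to count them, and tested them with DESeq2. The deposited log2 values, 1 per gene and sample, carry a normalization between samples. Its method and the tool versions are not given in the sources used here. The labels and the methods name different library kits. The values hold no counts, so read depth is unknown and no counting error is given.

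Groups came from the labels. For each of 14 comparisons, limma (version 3.58.1, R version 4.3.3, eBayes with trend) was run on the samples of its 2 groups, over genes with a mean of about 10 or more on the linear scale. Any gene that reached more than 22 in a sample (25 genes) was dropped. Adjustment of p-values ran over all genes tested by the Benjamini-Hochberg method, with a threshold of 0.05. An F test covered the 8 groups, and 3 interactions were fitted. Exact permutation tests used scipy 1.17.1, and relations used 100000 permutations. The fits were tested on simulated data. Genes were placed with GENCODE M21.

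The 10 genes and the lists beside them were chosen with earlier results of these data known. A difference is named where its unadjusted p was under 0.05 or an alternative called it, and for each list its called genes or the 2 with the smallest p. Some genes that this rule names are not reported here. p-values measure the spread between the samples of a group. The alternatives are given in the closing section.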

Additional observations from a re-analysis of the deposited data

Results flagged for a closer look

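In 5 of 80 sets of values (10 genes in 8 groups), the highest or lowest nerve stood off from the rest of its group by more than Dixon's 95% critical value, where chance flags about 1 in 20. The values below are the gap to the nearest nerve as a share of the range of the group. In HFD-STZ at 24 weeks replicate 7 was high for Gap43 (share 0.831, log2 value 11.92 against 8.26 for the next nerve) and for Ngfr (0.77, 11.28 against 9.58), and this is the library with neuronal transcripts. In HFD-STZ at 16 weeks replicate 1 was high for Egr2 (0.78, 14.26 against 14.07). In HFD-STZ-DR replicate 5 was high for Ngfr (0.727, 9.40 against 9.10) and replicate 1 was low for Shh (0.654, 6.81 against 7.67).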

How the results depend on the processing

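The count of genes called among the 10 was 0 in each of the 14 pairwise comparisons. It equalled the reported count in 166 of 171 counts under other settings and in all 190 counts that left out 1 sample, where it was 0 to 0 in every comparison. It was 1, Jun, in HFD against SD at 24 weeks with the Schwann cell marker score as a covariate, with all 8 groups in 1 fit, with the library-number run added to that fit, and with all 8 groups in 1 fit without replicate 7 of HFD-STZ at 24 weeks. It was also 1, Jun again, in HFD-DR against HFD with all 8 groups and the library-number run. Jun stayed past the threshold over the 8 groups under all 6 alternatives of that test, with limma adjusted p from 0.000632 to 0.0054. Egr2 stayed short of it there, from 0.0616 to 0.3. Over all genes, the 8-group test called 356, against 571 with the library-number run and 566 without replicate 7 of HFD-STZ at 24 weeks, and HFD against SD at 24 weeks called 22, against 7 to 166 under its alternatives. Of 170 alternative values of the 17 named differences, 1 turned its sign: Btc in HFD against SD at 16 weeks was −0.107 with the adipocyte score as a covariate. None of 183 values without 1 sample did so or passed the threshold. Without 1 sample, Jun in HFD against SD at 24 weeks ranged from −0.558 to −0.45 and in HFD-DR against HFD from 0.401 to 0.489. The relation count of 47 was 45 without the 2 samples farthest from the median score and 43 without replicate 7. The immediate early covariate and the settings without replicate 7 were chosen after seeing the data. Leaving out 1 sample was not run for the test over 8 groups, and no analysis used replicate numbers as pairs because the labels carry none. Unknown read depth limits what can be said of Gdnf.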

Other observations

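Lists of markers for other cell types were set beside the Schwann cell genes. Over the 8 groups 5 of 6 adipocyte markers were called, with Lep (leptin) spanning 5.58 on the log2 scale (limma adjusted p = 4.23e-05) and Cidec 3.05 (0.0112). Lep was 4.57 higher in HFD than in SD at 16 weeks (exact permutation p = 0.00126), and Adipoq was lower after reversal in the HFD-STZ nerves (log2 difference −2.30, exact permutation p = 0.002). None of the pairwise differences given here passed the threshold on the adjusted limma p. Of 6 macrophage markers, 2 were lower in HFD-DR than in HFD at an unadjusted p under 0.05, Cd68 (log2 difference −0.90, exact permutation p = 0.0134) and Adgre1 (log2 difference −0.60, exact permutation p = 0.0385). Of 7 skeletal muscle markers, 5 were higher in HFD-DR than in HFD at that level, among them Tnni2 by 2.94 (exact permutation p = 0.042), and Acta1 had a lower mean in HFD-STZ than in HFD at 16 weeks (log2 difference −2.16, exact permutation p = 0.048). None of the macrophage, muscle, endothelial, fibroblast, perineurial or neuronal markers was called over the 8 groups, at counts of 1 of 6, 2 of 7, 0 of 5, 1 of 5, 0 of 4 and 0 of 3 tested under an unadjusted p of 0.05. The smallest p-values of the other lists were those of Tie1 in HFD-STZ-DR against HFD-STZ (log2 difference −0.29, exact permutation p = 0.011), Col1a1 in HFD-STZ at 24 against 16 weeks (−0.61, exact permutation p = 0.0186), Slc2a1 in HFD-STZ against SD at 24 weeks (−0.38, exact permutation p = 0.0438) and Nefh in HFD-STZ-DR against SD (0.54, exact permutation p = 0.023). Among 12 immediate early genes the smallest was that of Fosb in HFD-STZ against SD at 16 weeks (0.96, unadjusted limma p = 0.00257, exact permutation p = 0.0238). Each gene named here for a smallest p was picked by the unadjusted limma p, not by the permutation p.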
